A study of Mus musculus with 8 samples.

Results

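The transcripts described here are those of FURIN and of related proteases that cut precursor proteins in the secretory pathway. The 8 genes were chosen by name: Furin, Pcsk1, Pcsk4, Pcsk5, Pcsk6 and Pcsk7, which encode proprotein convertases, and Mbtps1 and Mbtps2, which encode the site-1 and site-2 proteases. They are 8 of the 55573 genes in the deposited count table, and 6 of them were among the 12500 genes that passed a filter on low counts. RNA sequencing was done on naive CD8+ T cells, cytotoxic lymphocytes that have not met their antigen, sorted from spleen and lymph nodes of male C57BL/6 mice. There were 5 libraries labelled Furin KO, of which replicate 1 came from a mouse of 7 weeks and replicates 2 to 5 from mice of 8 weeks. There were 3 libraries labelled WT, of which replicate 1 came from a mouse of 7 weeks and replicates 2 and 3 from mice of 8 weeks. The labels name neither the part of Furin that was removed nor the cells in which the deletion acts, and they give no treatment.

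FURIN and PCSK7 are membrane-bound serine proteases of the trans-Golgi network. They cut precursors after clusters of basic residues and so release active growth factors, receptors and enzymes. Proprotein convertases are related to bacterial subtilisin. The site-1 protease belongs to the same superfamily but cuts after hydrophobic motifs in the Golgi. The site-2 protease is a metalloprotease that cuts within the membrane. Acting in turn, the site-1 and site-2 proteases release the SREBP factors, which drive sterol synthesis, and ATF6, which drives chaperone genes. In T cells, FURIN is known for processing the precursor of TGF-beta.

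Total counts were 11308220 to 21040431 in the libraries labelled Furin KO and 14463450 to 19159021 in WT. In all 8 libraries the naive CD8 markers stood high, with Cd8a at 1648 to 1941 CPM in Furin KO and 1456 to 1790 CPM in WT. CPM are counts scaled to the same TMM-adjusted library size. Summed levels of other cells' markers were at most 0.0970 CPM in Furin KO and 0.506 CPM in WT for 3 NK cell genes, at most 0.0953 and 0.157 CPM for 3 plasma cell genes, at most 1.41 and 2.08 CPM for 5 myeloid genes, and at most 1.45 and 0.787 CPM for 4 dendritic cell genes. The 5 B cell genes summed to 19.5 to 28.6 CPM in Furin KO and 20.6 to 28.3 CPM in WT, mostly from Cd79b. The 5 stromal and endothelial genes summed to 220.4 to 256 CPM in Furin KO and 217 to 229 CPM in WT, mostly from Pecam1. Col1a1 (means of 1.65 CPM in Furin KO and 1.51 CPM in WT) and Pdgfrb (0.799 and 0.606 CPM) also passed the filter on low counts. Cdh5 and Col3a1 did not pass it. Of the 4 platelet genes Itga2b alone had counts, at 3.95 to 8.43 CPM in Furin KO and 6.78 to 7.76 CPM in WT. The markers of CD4+ and regulatory T cells (Cd4, Foxp3, Zbtb7b and Cd40lg), all 4 detected, summed to 0.615 to 2.52 CPM in Furin KO and 2.64 to 5.08 CPM in WT, so their ranges did not overlap. Of these 4, Foxp3 alone passed the filter on low counts. Its own ranges overlapped, at 0 to 2.28 CPM in Furin KO and 1.97 to 2.14 CPM in WT. The part of these markers in the results was not tested. By the distances between their counts (chi-square per degree of freedom), the libraries could be put in 3 sets that follow their titles: 1 and 2, 3 to 5, and 6 to 8. The margin was small, with at most 16.6 within a set and at least 16.7 between sets. Each set holds 1 WT library. The set of titles 3 to 5 (Furin KO replicates 2 and 3, WT replicate 2) had 85.8 to 204 CPM of the immediate early gene Fos, against 801 to 1075 CPM in the other 5 libraries. Whether the libraries come from separate mice is not stated, so p-values cover the spread among these samples alone, some of which may be technical. In bulk RNA, fewer cells of a type and less RNA per cell cannot be told apart.

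Where transcription of the best-measured convertases begins is shown by 3 windows from RefSeq on GRCm38.p6, each with 250 bases before an annotated start and 50 after it. They are shown because RefSeq gives Furin separate starts, all of which a whole-gene count adds together. The 300-base windows carry capitals where a searched motif was found on either strand, GGGCGG (GC box) or CCGGAAG (ETS).
Furin, far start, chr7:80405387-80405686, minus strand: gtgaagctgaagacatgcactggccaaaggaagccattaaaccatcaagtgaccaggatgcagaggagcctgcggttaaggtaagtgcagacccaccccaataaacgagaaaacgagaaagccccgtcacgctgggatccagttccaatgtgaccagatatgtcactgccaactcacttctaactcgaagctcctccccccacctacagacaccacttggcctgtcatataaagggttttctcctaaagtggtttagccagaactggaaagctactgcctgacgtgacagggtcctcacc
Furin, near start, chr7:80402763-80403062, minus strand: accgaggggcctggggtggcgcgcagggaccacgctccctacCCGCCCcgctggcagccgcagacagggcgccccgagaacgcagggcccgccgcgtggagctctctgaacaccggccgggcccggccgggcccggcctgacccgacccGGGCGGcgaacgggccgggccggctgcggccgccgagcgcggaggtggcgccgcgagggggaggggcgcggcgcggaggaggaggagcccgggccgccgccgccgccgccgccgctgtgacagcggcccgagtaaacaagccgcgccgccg
Pcsk7, chr9:45906319-45906618, plus strand: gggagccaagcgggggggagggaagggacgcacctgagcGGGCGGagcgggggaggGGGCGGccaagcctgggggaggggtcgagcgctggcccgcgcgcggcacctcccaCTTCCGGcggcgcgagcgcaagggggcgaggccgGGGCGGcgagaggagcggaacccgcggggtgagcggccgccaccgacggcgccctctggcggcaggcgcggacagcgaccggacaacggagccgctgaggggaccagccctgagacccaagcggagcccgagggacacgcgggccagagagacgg

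The Furin starts lie in unlike sequence. The far window was 51.3% G and C and the near window 82.3%, against a median of 52.7% over all 32851 windows of this length. The GC box occurred 0 times in the far window and 2 times in the near window of Furin, and 3 times in that of Pcsk7, and 35.7% of all windows hold it. The ETS letters occurred 1 time in the Pcsk7 window and are held by 8.86% of all windows. TTCNNNGAA, the motif of STAT factors, and GTCTAGAC, that of SMAD factors, were not found in these 3 windows, and 8.30% and 0.213% of all windows hold them. TGANTCA (AP-1) and TCACNCCAC (the core of the sterol response element) were not found there either, and 7.81% and 1.242% of all windows hold them. Such a match or its lack describes the letters of these windows.

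Levels of the 8 genes were compared per length, as CPM per kilobase of merged exons. In this measure Mbtps1 came first, with 26.9 ± 2.24 CPM per kilobase in Furin KO and 27.7 ± 1.004 in WT (SD, n = 5 and 3). Pcsk7 followed with 18.9 ± 2.55 in Furin KO and 17.9 ± 0.787 in WT. Furin came next with 7.56 ± 1.29 in Furin KO and 6.92 ± 0.622 in WT. These 3 levels did not overlap with each other in any of the 8 libraries, and Furin lay above the remaining genes.

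The lower levels ran into each other. Pcsk4 had 2.65 ± 0.997 CPM per kilobase in Furin KO and 2.27 ± 0.976 in WT. Pcsk1 had 1.33 ± 0.294 in Furin KO and 2.01 ± 0.554 in WT. Mbtps2 had 1.43 ± 0.153 in Furin KO and 1.40 ± 0.0592 in WT. The ranges of Pcsk4 and Pcsk1 overlapped, as did those of Pcsk1 and Mbtps2. Per length of the longest principal transcript in place of merged exons, Mbtps1, Pcsk7 and Furin kept this order (means of 66.0, 24.9 and 15.5 CPM per kilobase over the 8 libraries). There Mbtps2, at 3.68, stood above Pcsk4 at 2.92 and Pcsk1 at 1.76. Pcsk5 and Pcsk6, convertases of many solid tissues that can be secreted, had 0 counts in all 8 libraries. With 3 counts as the limit, 0 counts allow at most 0.143 to 0.264 CPM in a library, by counting error only.

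**Figure D1:**
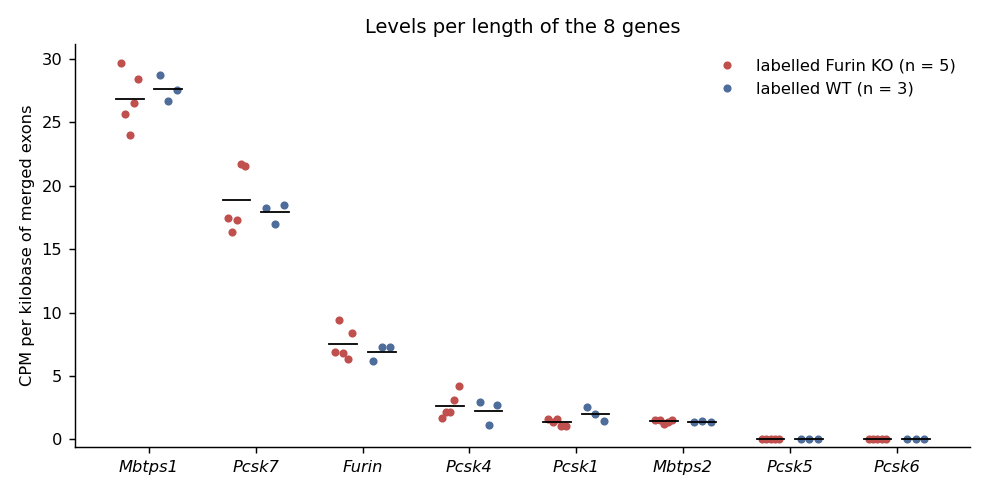
Levels of the 8 genes in CPM per kilobase of merged exons (vertical axis), in the order of their means. Points are libraries, 5 labelled Furin KO and 3 labelled WT, and lines are group means. Mbtps1, Pcsk7 and Furin stand apart from the other genes, and Pcsk5 and Pcsk6 lie at 0.

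The targeted gene was not lower where its loss was labelled. Furin (ENSMUSG00000030530, GRCm38 chromosome 7, 80388585 to 80405436, minus strand) had 63.5, 86.4, 62.2, 58.0 and 76.6 CPM in Furin KO replicates 1 to 5, against 57.0, 66.8 and 66.9 CPM in WT replicates 1 to 3. The groups overlapped, with Furin KO replicates 2 and 5 above all WT libraries and no Furin KO library below them. The log2 fold change was 0.12 (SE 0.13, 95% interval -0.15 to 0.40, edgeR adjusted p = 0.9998). As a fold this interval runs from 0.900 to 1.32, so a fall of more than 10.01% in the whole-gene count lies outside it. The counts behind these values were 6367 over the libraries labelled Furin KO and 3300 over WT.

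A whole-gene count adds up all exons, and its scale can be set against that of 1 exon. In the GENCODE M21 annotation the exon that holds the start codon of Furin is exon 2 (chromosome 7, 80398594 to 80398928). Its 335 bases are 7.73% to 8.04% of the length of the 3 principal transcripts and 3.65% of the merged exons. Reads were taken to lie evenly along the shortest of these transcripts, with its other exons at an unchanged level. The loss of that exon alone would then give a log2 fold change of -0.12. The interval above holds this value, no change and a rise alike, so it cannot tell whether this exon is missing. The labels do not state which exon is missing, so the libraries are called by their labels and every direction is drawn between labels. With each library left out in turn, the log2 fold change of Furin ran from 0.03 (without Furin KO replicate 2) to 0.19 (without Furin KO replicate 4), and the interval above holds for the fit of all 8.

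An annotated antisense gene, Gm44851, overlaps 1168 bases of Furin. It had 26 counts in all, from 2 libraries labelled Furin KO, with at most 17 in a library. Its mean was 0.268 CPM in Furin KO and 0 CPM in WT. Furin within the sets of similar libraries had 63.5 CPM in Furin KO and 57.0 CPM in WT (titles 1 and 2), means of 74.3 and 66.8 CPM (titles 3 to 5) and means of 67.3 and 66.9 CPM (titles 6 to 8). With the set as a factor the log2 fold change was 0.10 (edgeR adjusted p = 0.989).

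Pcsk7 (ENSMUSG00000035382, chromosome 9, 45906497 to 45929726) is the other convertase of the trans-Golgi network in this list with a high level. It had 90.9, 85.1, 90.2, 112.9 and 112.3 CPM in Furin KO replicates 1 to 5, against 94.9, 88.4 and 96.03 CPM in WT replicates 1 to 3. Furin KO replicates 4 and 5 lay above all other libraries, while the groups overlapped. The log2 fold change was 0.08 (SE 0.11, 95% interval -0.16 to 0.31, edgeR adjusted p = 0.9998). Rnf214 and Tagln overlap its ends on the opposite strand by 415 and 108 bases, and the strand setting of the counting is not given in the sources used here.

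The ratio of Furin to Pcsk7 counts, which does not depend on library size, was 0.699, 1.01, 0.690, 0.514 and 0.682 in Furin KO replicates 1 to 5, against 0.600, 0.755 and 0.697 in WT replicates 1 to 3. Furin KO replicates held both the lowest and the highest ratio. Per length of merged exons, Furin made up 25.0% ± 4.51 of the summed level of the convertase genes in Furin KO and 23.9% ± 2.93 in WT (SD, n = 5 and 3). Furin and Pcsk7 together made up 85.1% to 88.1% in Furin KO and 81.7% to 88.5% in WT. These shares depend on the length used. Furin has 9178 merged exon bases and 4332 in its longest principal transcript, against 5202 and 3876 for Pcsk7.

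**Figure D2:**
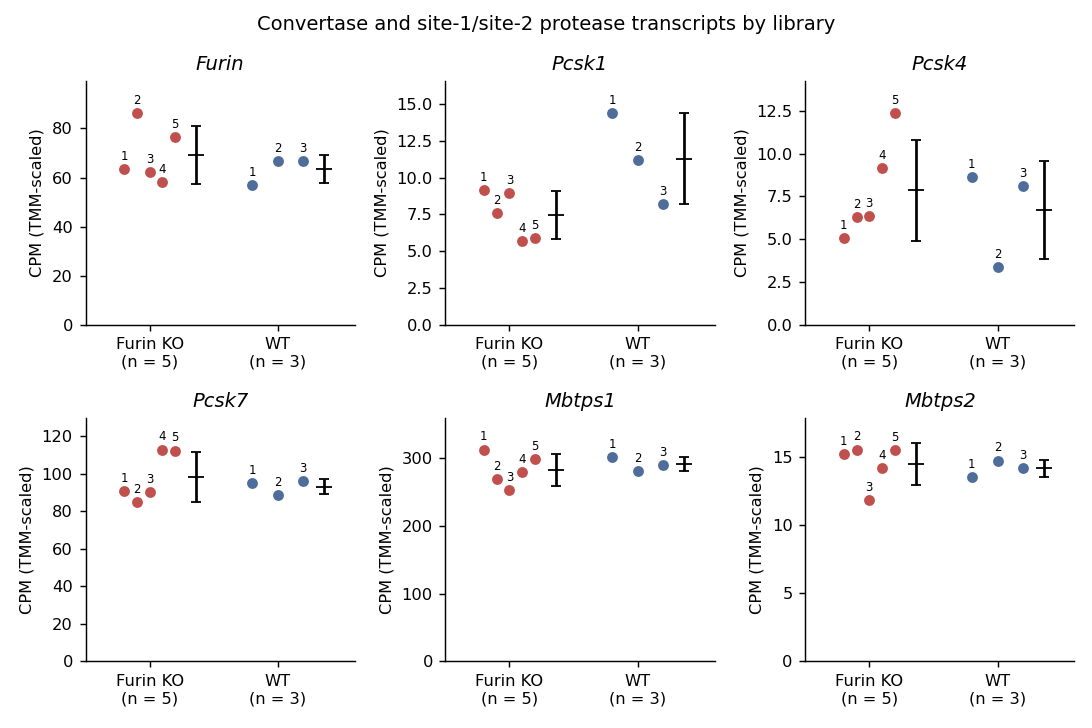
CPM on the TMM-scaled library size (vertical axes, from 0) of the 6 tested genes in each library, with replicate numbers beside the points and the mean ± SD at the right of each group. The 5 libraries labelled Furin KO and the 3 labelled WT overlap at each gene.

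Pcsk1 (ENSMUSG00000021587, chromosome 13, 75089826 to 75134861) encodes a convertase best known for cutting prohormones in endocrine cells. Its 5 libraries labelled Furin KO had 9.16, 7.62, 8.97, 5.67 and 5.89 CPM, against 14.4, 11.2 and 8.21 CPM in the 3 WT libraries. Furin KO replicates 2, 4 and 5 lay below all WT libraries, and replicates 1 and 3 lay above WT replicate 3. The log2 fold change was -0.59 (SE 0.24, 95% interval -1.10 to -0.08), with an unadjusted p of 0.0252 and an edgeR adjusted p of 0.9998 over 12500 genes. At an unadjusted p under 0.05 stood 401 genes (3.21%), and a fold change at least as large as that of Pcsk1, in either direction, was seen in 8.8% of genes. An exact two-sided permutation test of log2(CPM + 1) gave p = 0.0893, and with 56 arrangements no p under 0.0179 can be reached. The summed CD4+ and regulatory T cell markers were also lower in Furin KO. Foxp3, the 1 of them tested, did not pass (log2 fold change -0.90, edgeR adjusted p = 0.9998). Whether these markers bear on Pcsk1 was not tested. Without WT replicate 1, the library of highest Pcsk1 level, the log2 fold change of Pcsk1 was -0.37.

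Within each set of similar libraries, the Furin KO values of Pcsk1 lay under those of WT. It had 9.16 CPM in Furin KO and 14.4 CPM in WT (titles 1 and 2), means of 8.29 and 11.2 CPM (titles 3 to 5), and means of 5.78 and 8.21 CPM (titles 6 to 8). In 777 genes (6.22%) every Furin KO library lay below the WT library of its set, and in 5.98% every one lay above it, so such an order is shared by many genes. With the set as a factor Pcsk1 did not pass (log2 fold change -0.52, unadjusted p = 0.0178, edgeR adjusted p = 0.719), while 12 genes (0.096%) did and 5.65% had an unadjusted p under 0.05.

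Pcsk4 (ENSMUSG00000020131, chromosome 10, 80321283 to 80329498) encodes a convertase best known from germ cells. It had 5.04, 6.32, 6.36, 9.15 and 12.4 CPM in Furin KO replicates 1 to 5, against 8.65, 3.39 and 8.10 CPM in WT replicates 1 to 3. Its libraries spread by a factor of 3.65 from lowest to highest, the widest of the 6 tested genes. The log2 fold change was 0.22 (SE 0.33, 95% interval -0.48 to 0.92, edgeR adjusted p = 0.9998). Without WT replicate 2, the library of lowest level, it was -0.10.

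Its order between labels was not the same in every set. Pcsk4 stood at 5.04 CPM in Furin KO and 8.65 CPM in WT in titles 1 and 2. It averaged 6.34 CPM in Furin KO against 3.39 CPM in WT in titles 3 to 5, and 10.8 CPM in Furin KO against 8.10 CPM in WT in titles 6 to 8.

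**Figure D3:**
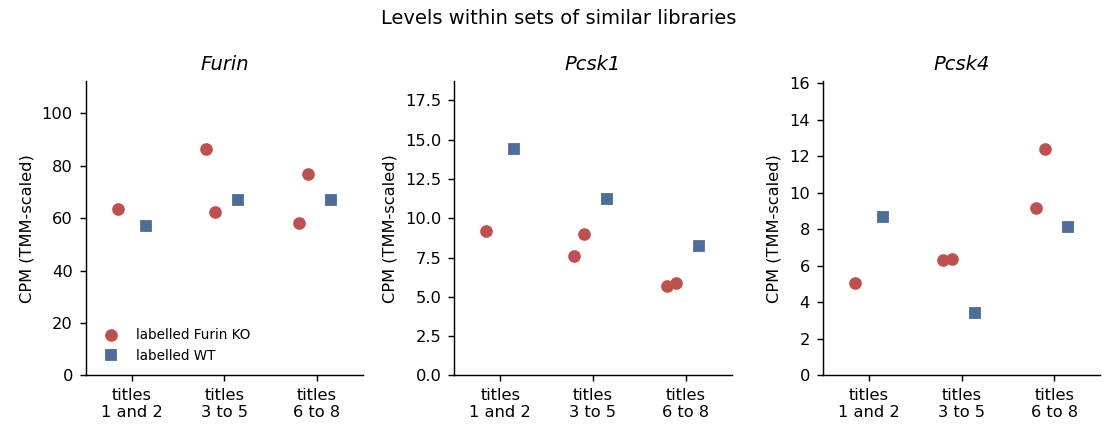
CPM of Furin, Pcsk1 and Pcsk4 (vertical axes, from 0) within the 3 sets of similar libraries, named by their titles. Circles are libraries labelled Furin KO and squares those labelled WT. Pcsk1 circles lie below the WT square of each set, whereas Furin and Pcsk4 have no common order.

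Mbtps1 (ENSMUSG00000031835, chromosome 8, 119508156 to 119558735) encodes the site-1 protease. It had 313, 270.1, 253, 280.0 and 299 CPM in Furin KO replicates 1 to 5, against 303, 281 and 290.4 CPM in WT replicates 1 to 3. The groups overlapped, and the log2 fold change was -0.04 (SE 0.09, 95% interval -0.23 to 0.15, edgeR adjusted p = 0.9998). Mbtps2 (ENSMUSG00000046873, chromosome X, 157535371 to 157598715) encodes the site-2 protease. It had 15.2, 15.5, 11.9, 14.2 and 15.5 CPM in Furin KO replicates 1 to 5, against 13.5, 14.7 and 14.2 CPM in WT replicates 1 to 3. Here Furin KO replicate 3 was lowest and the groups overlapped (log2 fold change 0.03, SE 0.16, 95% interval -0.32 to 0.38, edgeR adjusted p = 0.9998). The 2 proteases act in turn on the SREBP and ATF6 precursors. Mbtps1 had 19.7 ± 1.49 counts for each count of Mbtps2 in Furin KO and 20.7 ± 1.63 in WT (SD, n = 5 and 3).

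In the quasi-likelihood test of edgeR, adjusted by Benjamini-Hochberg, 0 of the 6 tested genes passed at an adjusted p under 0.05, where 4 of 12500 genes (0.032%) did, with 3 above WT (0.024%) and 1 under it (0.008%). Of the 6, 2 had a log2 fold change below 0, against 50.2% of all tested genes. At an unadjusted p under 0.05 stood 1 of the 6, Pcsk1, beside 3.21% of all tested genes. DESeq2 and limma-voom also called 0 of the 6. The groups overlapped at all 6, while they did not overlap at 363 of all tested genes (2.9%). The 95% interval was narrowest at Mbtps1 and widest at Pcsk4. A p that misses the threshold does not show that the levels were alike.

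**Figure D4:**
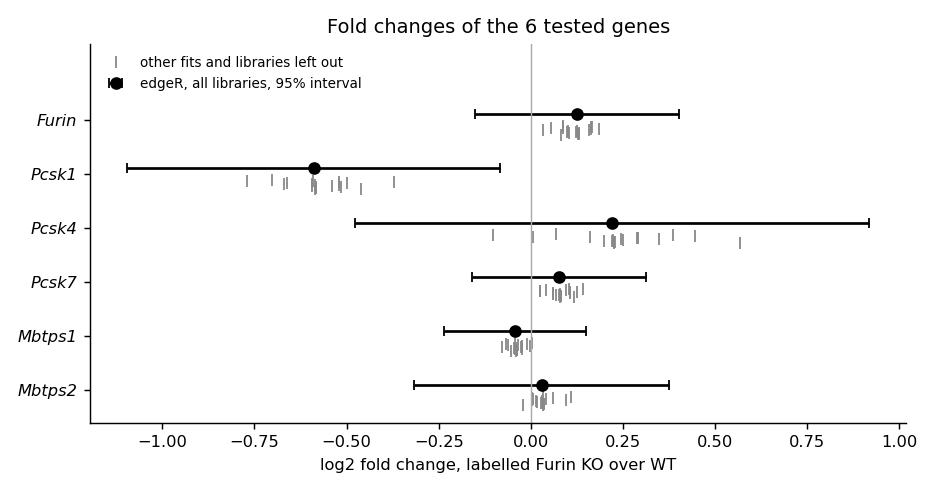
Log2 fold change (horizontal axis), labelled Furin KO over WT, of the 6 tested genes by edgeR with its 95% interval, and as grey ticks the 18 other fits. The intervals of Furin, Pcsk4, Pcsk7, Mbtps1 and Mbtps2 hold 0, and that of Pcsk1 runs from -1.10 to -0.08 before adjustment over all genes.

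Genes whose profile over the libraries was most like that of Furin were found by the root mean square difference of log2(CPM + 1), each gene centred on its own mean over the 8 libraries. Among 9274 genes with a mean of at least 5 CPM, the nearest were Nudt16l1 (a difference of 0.0740 on the log2 scale), Ptp4a3 (0.0763), Ppard (0.0835), Zscan20 (0.0850) and Slc25a53 (0.0917). The median over all genes compared was 0.250. Ptp4a3, a phosphatase, had its highest level in Furin KO replicate 2 (257 CPM), as Furin did, and its lowest in WT replicate 1 (180 CPM). Of the other proteases Mbtps2 came nearest, at rank 280 (0.150), and Pcsk1 and Pcsk4 were far off at ranks 9026 and 9062. This difference also depends on each gene's own spread. The SD of log2(CPM + 1) was 0.120 at Mbtps2, 0.402 at Pcsk1 and 0.496 at Pcsk4, so these ranks do not measure likeness of shape alone. The 5 nearest genes were picked by this measure, so highs and lows shared with Furin are no separate result. All of these profiles share the libraries and their depth.

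Around Furin, 83 other genes lie within 1 Mb on chromosome 7 and 33 of them were tested. By edgeR 0 of the 33 passed and 0 had an unadjusted p under 0.05, against 3.21% of all genes. Their median log2 fold change was 0.02, beside 0.00 (-0.00068) over all tested genes, with 18 above 0 and 15 below. Fes, a tyrosine kinase gene 0.639 kb away, had 0.552 ± 0.332 CPM in Furin KO and 0.551 ± 0.725 CPM in WT. Blm, which encodes a DNA helicase and is the nearest tested gene on the other side, had a log2 fold change of -0.27. Ticrr was the 1 gene of the 33 whose groups did not overlap, with 0.650 ± 0.443 CPM in Furin KO and 1.88 ± 0.563 CPM in WT (edgeR adjusted p = 0.9998), beside 2.9% of all tested genes.

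**Figure D5:**
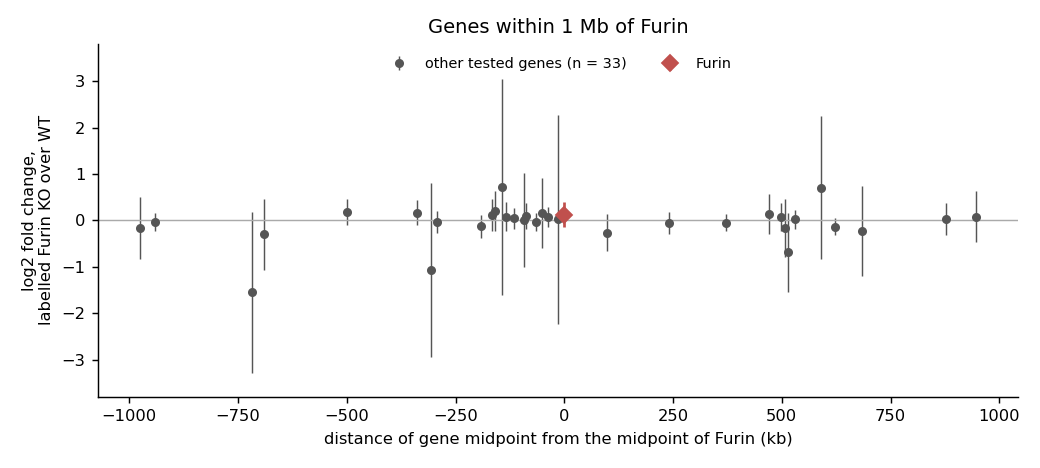
Log2 fold change, labelled Furin KO over WT, with 95% intervals (vertical axis) of Furin and of the 33 other tested genes within 1 Mb, by the distance of gene midpoints (horizontal axis, kb). The values scatter around 0, and wide intervals belong to genes of few counts such as Ticrr.

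Genes whose products are cut by the site-1 protease, the site-2 protease or both ranged widely in level. Creb3l1 had 1.65 CPM in Furin KO and 1.29 CPM in WT, and Srebf2 was the highest. Of 10 listed precursors 8 were tested and 0 passed in either direction, with a median log2 fold change of 0.06 beside 0.00 over all tested genes. Srebf2, the sterol-regulating factor SREBP2, had 238 ± 28.2 CPM in Furin KO and 274 ± 25.8 CPM in WT (log2 fold change -0.20). Gnptab, whose product makes the mannose 6-phosphate signal of lysosomal enzymes, had 75.3 ± 8.599 CPM in Furin KO and 66.1 ± 3.58 CPM in WT (0.19). Atf6b had a log2 fold change of -0.11. Among the 3 genes that escort or retain SREBP, 0 passed, with log2 fold changes of -0.23 at Insig1, 0.24 at Insig2 and -0.06 at Scap.

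Downstream of these factors, 0 of 18 genes of sterol synthesis passed. Of the 18, 13 were below 0, where 50.2% of all tested genes were, with a median log2 fold change of -0.17. By edgeR 0 of the 18 had an unadjusted p under 0.05, against 3.21% of all tested genes. Sqle, squalene epoxidase, had 10.6 ± 2.66 CPM in Furin KO and 13.8 ± 3.93 CPM in WT (log2 fold change -0.39). Mvd, a decarboxylase of the mevalonate pathway, had -0.23 and Hmgcs1, the HMG-CoA synthase, -0.19. Of 11 chaperone genes driven by ATF6, 0 passed and the median was 0.03. Creld2, a protein of the endoplasmic reticulum, was the 1 gene of these whose groups did not overlap (28.2 ± 1.25 CPM in Furin KO, 30.8 ± 0.825 CPM in WT, log2 fold change -0.13), where 2.9% of all tested genes did not overlap, while Sdf2l1 had 0.22 and Herpud1 -0.08.

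Of 5 inhibitors or chaperones of convertases, 3 were tested and 0 passed. By edgeR 2 of the 3 had an unadjusted p under 0.05, as did 3.21% of all tested genes. Gbp2 and Gbp5, interferon-induced GTPases that in human cells lower the activity of FURIN, had log2 fold changes of 0.47 and 0.31. Gbp2 stood at 251 ± 59.9 CPM in Furin KO and 182 ± 12.6 CPM in WT, and Gbp5 at 80.4 ± 4.53 CPM in Furin KO and 65.1 ± 9.75 CPM in WT. The edgeR adjusted p was 0.9998 for both. For Gbp2 it was 0.00623 in the edgeR fit with no filter on low counts. With the library set as a factor the edgeR adjusted p of Gbp2 was 0.194, and by DESeq2 it was 0.468. The groups overlapped at Gbp2, with a lowest Furin KO library of 168 CPM and WT libraries of 169 to 195 CPM. Scg5, a chaperone of neuroendocrine convertases, had -0.38 (edgeR adjusted p = 0.9998). Pcsk1n, which encodes an inhibitor of the PCSK1 enzyme, and Serpinb8 had 0 counts.

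Of 11 genes for the sorting of FURIN between the Golgi, endosomes and cell surface, 0 passed, with a median log2 fold change of -0.07. Of the 11, 9 were below 0, where 50.2% of all tested genes were. By edgeR 0 of the 11 had an unadjusted p under 0.05, against 3.21% of all tested genes. Vps29, of the retromer, had -0.25, Ap1s1, of the AP-1 adaptor, -0.19, and Flna, the filamin that tethers FURIN, -0.10. Of 3 tested genes for the trimming or amidation of cut peptides 0 passed. Cpm, a carboxypeptidase of the cell surface, had 54.8 ± 2.80 CPM in Furin KO and 53.0 ± 4.47 CPM in WT. Cpd had a log2 fold change of 0.63 at under 1.07 CPM in every library, and Pam one of -0.03.

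Transcripts of known FURIN substrates did not pass either: 0 of 18 tested among 26 listed, with a median log2 fold change of -0.03. Of the 18, 7 were above 0 and 11 below, where 50.2% of all tested genes were below 0. Itgae, the CD103 integrin chain, had 348 ± 40.0 CPM in Furin KO and 465 ± 58.1 CPM in WT (log2 fold change -0.42, edgeR adjusted p = 0.690). With the set of similar libraries as a factor its edgeR adjusted p was 0.00670, and with no filter on low counts it was 0.0199. By DESeq2 its adjusted p was 0.107. The groups did not overlap at 2 of the 18, Itgae and Adam15, where 2.9% of all tested genes did not overlap. Adam15, a metalloprotease gene, had 1.75 ± 0.838 CPM in Furin KO, with a lowest library of 0.439 CPM, and 3.03 ± 0.0972 CPM in WT (edgeR adjusted p = 0.9998). Adam19, a membrane metalloprotease, had a log2 fold change of -0.26 and Itga6, a laminin receptor chain, -0.20.

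Signals known to raise Furin in T cells, through the receptors of interleukin 12 and TGF-beta, gave 0 of 8 genes past the threshold. Of these 8, 5 were above 0 and 3 below, where 50.2% of all tested genes were below 0. Their log2 fold changes ran from -0.11 to 0.83, with a median of 0.06. Il12rb1, a chain of the interleukin 12 receptor, had 23.2 ± 4.24 CPM in Furin KO and 13.03 ± 2.96 CPM in WT (log2 fold change 0.83, edgeR adjusted p = 0.460). Its groups met at 16.18 CPM, the lowest Furin KO library, and 16.19 CPM, the highest WT library. DESeq2 called this gene (adjusted p = 0.0485), as did edgeR with no filter on low counts (adjusted p = 0.00522). With the library set as a factor its edgeR adjusted p was 0.0684. Stat4, the factor downstream of that receptor, had 106 ± 6.65 CPM in Furin KO and 99.3 ± 7.31 CPM in WT (log2 fold change 0.10).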

How the data were processed

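The authors deposited raw whole-number counts per Ensembl gene ID for 8 libraries. STAR, Trim Galore, FastQC and DESeq2 1.24.0 are listed, beside the build GRCm38, per the submitters' processing notes. The counting program, annotation, strand setting and treatment of multi-mapped reads were not given in the sources used here, so overlapping genes are uncertain. Symbols, coordinates and exon lengths came from GENCODE M21 on GRCm38, which matched 55480 IDs and left 93 without.

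From the deposited counts, edgeR 4.0.16 (R 4.3.3) was run with TMM factors, filterByExpr and the two-sided quasi-likelihood test of genotype. Adjustment was by Benjamini-Hochberg over 12500 genes, which hold at least 99.9% of each library's counts. Intervals are at 95%. The test was tested on simulated data, which were drawn with no library sets and so do not cover the effect of such sets. The 8 genes, the lists and the 3 library sets were chosen with earlier results of these data known. Named genes were the 8, up to 3 genes of lowest unadjusted p per list, the nearest, overlapping or called genes around Furin, and the 5 profiles nearest to that of Furin. Some are not reported here. Genes named outside this rule, such as Ticrr, Adam15, Creb3l1 and Fos, were chosen after their values were seen. Alternatives used DESeq2 1.42.0, limma-voom (limma 3.58.1), RLE factors or library size alone, no filter or a CPM of 1 in 3 samples, age or library set as a factor, the 8-week libraries, and each library left out. Replicate numbers follow accession order. Total counts set the precision, and limits from counts cover counting error only.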

Additional observations from a re-analysis of the deposited data

How the results depend on the processing

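In all 18 alternatives 0 of the 6 tested convertase and protease genes passed, with adjusted p of at least 0.719. The log2 fold change of Furin ran from 0.03 to 0.19, that of Pcsk7 from 0.02 to 0.14 and that of Pcsk1 from -0.77 to -0.37, with no change of sign. With each library left out in turn, Pcsk4 ran from -0.10 (without WT replicate 2) to 0.45, Mbtps1 from -0.08 to -0.0033 and Mbtps2 from 0.0030 to 0.09. Mbtps2 turned to -0.021 in the 8-week libraries alone. Mbtps1 turned to 0.0040 without the libraries of titles 3 to 5, an alternative chosen after seeing the data, where the count of all genes called was 8. That count was 4 in the edgeR fit of all libraries, 3 to 5 with each library left out, 14 by DESeq2, 38 with no filter on low counts and 12 with the library set as a factor. The cause was not tested. No paired analysis was possible because the labels give no replicate numbers that the groups share. The library sets used as a factor are the 3 runs of title numbers, which a grouping by the distances between counts matched. Pcsk1 and Pcsk4 rest on 67 to 215 and 65 to 192 counts in a library, and both spread more than most genes of like level.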

Other observations

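The genes also differed in how much they varied over the 8 libraries, whatever the label. Mbtps2 had an SD of 0.120 in log2(CPM + 1), and 2.16% of the 1572 tested genes within 1.5 times its mean level had a lower one. Pcsk4 had an SD of 0.496, and 91.9% of the 1163 genes of like level had a lower one. Pcsk1 (SD 0.402) stood above 83.3% of genes of its level, Furin (0.199) above 79.6%, Pcsk7 (0.152) above 59.2% and Mbtps1 (0.0977) above 26.6%. These shares are descriptions of the 8 libraries, and no test was made of them.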
